A study of Mus musculus with 9 samples.

Results

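Genes of retinoid transport and metabolism were examined for accessible chromatin in 3 populations of sorted mouse peritoneal macrophages. The 9 genes, Dhrs3, Rdh10, Aldh1a1, Aldh1a2, Aldh1a3, Rbp4, Stra6, Cyp26b1 and Crabp2, were chosen by name from 21631 protein-coding genes, and each was followed in its gene body with 10 kb on each side (RefSeq, GRCm38). Of all 36843 accessible regions, 24 lay in these windows, and no region lay in more than 1 of them. A region is a set of peaks, from any list, that overlap by at least 1 bp.

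Accessibility was measured by ATAC-seq, in which Tn5 transposase cuts and tags open DNA. The 9 samples form 3 groups of 3. Tissue-converted macrophages came from mice that received 2 ml thioglycollate, an irritant that recruits monocytes to the peritoneum, and that ate tamoxifen diet for 8 weeks. Tissue-resident macrophages have no group-specific treatment in the labels. Monocyte-derived macrophages were taken on day 4 after 2 ml thioglycollate. All mice, in every group, received IL-4 complexes (5 µg IL-4 with 25 µg anti-IL4) every other day, starting 4 days before harvest. All carried Cx3cr1CreERT2-IRES-EYFP/+ and Rosa26-stopfl-tdTomato/+, so that tamoxifen marks only cells in which the Cx3cr1 promoter is active. The labels state neither ages nor whether animals were pooled. Tamoxifen, thioglycollate, time and cell origin differ together between the groups and cannot be told apart.

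The processed data were 1 merged peak list per group, with 15552 tissue-converted, 24348 tissue-resident and 33694 monocyte-derived peaks. There is thus no spread between replicates, and no p-value between groups was computed. Read depth is unknown, so a missing peak may be closed chromatin or chromatin below detection. In sorted cells in bulk, fewer cells with an open site and a less open site in each cell cannot be told apart. Of 7 macrophage marker genes (Adgre1, Csf1r, Itgam, Spi1, Lyz2, Mertk and Cd68), 3 held a region in the tissue-converted, 7 in the tissue-resident and 7 in the monocyte-derived list, with 4, 12 and 18 regions in that order. Of 6 mesothelial and stromal genes, which mark cells known to make retinoic acid, 0, 1 and 1 held a region in the same order of lists. That gene was Pdgfra, and Msln, Wt1, Upk3b, Krt19 and Col1a1 had no region in any list. Of 4 B cell genes, 1 held a region in each list. Over all coding genes 43.2% held a region in the tissue-converted, 54.0% in the tissue-resident and 60.2% in the monocyte-derived list. The 3 of 7 macrophage genes in the tissue-converted list were near that share, so this count does not set them apart from other genes.

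Vitamin A circulates as retinol bound to the carrier RBP4 and can enter cells through its receptor STRA6. Retinol is oxidised to retinaldehyde, mainly by RDH10, and DHRS3 reduces retinaldehyde back to retinol. The ALDH1A enzymes oxidise retinaldehyde to retinoic acid, CRABP2 carries retinoic acid to nuclear receptors, and CYP26 enzymes degrade it. Retinoic acid is known to induce Gata6, the factor that directs the programme of resident peritoneal macrophages, and the enzymes that make it in the peritoneum are best known from stromal cells.

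Most regions lay in the windows of Dhrs3 and Rdh10, the genes that interconvert retinol and retinaldehyde. Dhrs3 held 13 of the 24 regions and Rdh10 held 6. All 13 also lie in the body of Vps13d. The 6 lie within 1775 bp, and 2 of them have Rdh10 as their nearest coding gene end. Aldh1a3 and Cyp26b1 held 2 each and Crabp2 held 1, while Aldh1a1, Aldh1a2, Rbp4 and Stra6 held no peak of any list. A region was present in 3 of 9 genes in the tissue-converted list (33.3%), where 43.2% of all protein-coding genes had one. The count was 4 of 9 in the tissue-resident list (44.4%), against 54.0% of all genes. It was 5 of 9 in the monocyte-derived list (55.6%), against 60.2% of all genes. In all 3 lists the share was thus somewhat below that of all genes, and 1 gene more would have turned each of these differences. Summed over the 9 genes, 10 regions were called in tissue-converted, 14 in tissue-resident and 23 in monocyte-derived macrophages, the same order as the lengths of the lists.

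**Figure D1:**
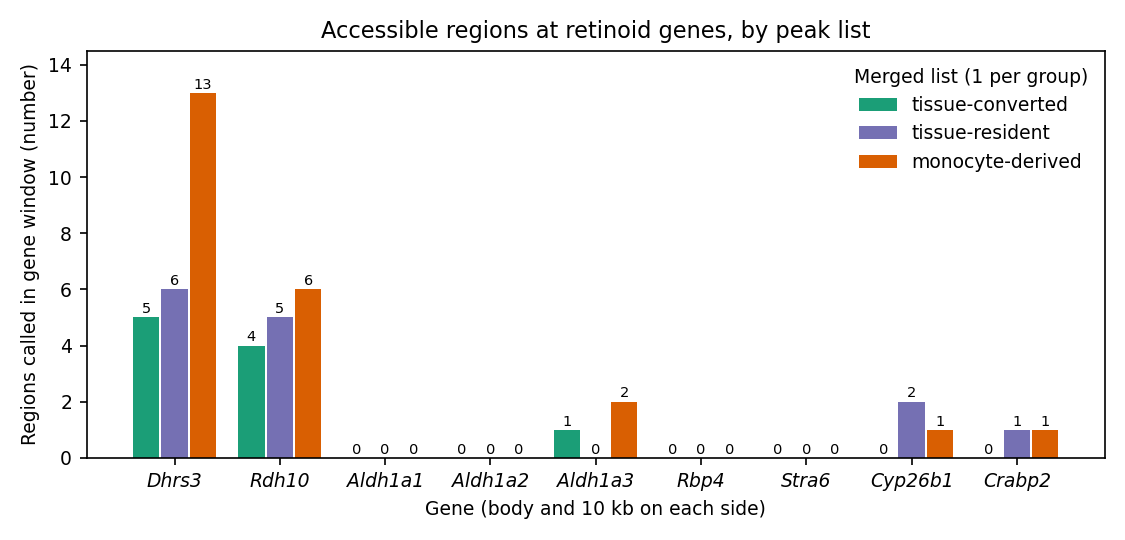
Number of accessible regions (y axis) in the body and 10 kb on each side of each retinoid gene (x axis), by merged peak list; each bar is 1 list, so there is no error bar. Dhrs3 had 5, 6 and 13 and Rdh10 4, 5 and 6 regions in tissue-converted, tissue-resident and monocyte-derived macrophages, and 4 genes had none.

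Promoter sequence was at hand in RefSeq (GRCm38.p6) for 6 of the 9 genes, as windows from 250 bases before to 50 bases after a start site. Dhrs3 is shown because its promoter was the only one of these that peaks overlapped, and the others because they stand for members without a promoter call: the start of Cyp26b1, the inner start of Rbp4 and the start of Aldh1a2. In Dhrs3 (chr4:144892577-144892876, plus strand) capitals mark the 125 bases, chr4:144892614-144892738, that a peak of every list covered. In Cyp26b1 (chr6:84593761-84594060, minus strand) and Rbp4 (chr19:38124762-38125061, minus strand) capitals mark TATAAA, and Aldh1a2 (chr9:71215539-71215838, plus strand) has no capitals.
Dhrs3: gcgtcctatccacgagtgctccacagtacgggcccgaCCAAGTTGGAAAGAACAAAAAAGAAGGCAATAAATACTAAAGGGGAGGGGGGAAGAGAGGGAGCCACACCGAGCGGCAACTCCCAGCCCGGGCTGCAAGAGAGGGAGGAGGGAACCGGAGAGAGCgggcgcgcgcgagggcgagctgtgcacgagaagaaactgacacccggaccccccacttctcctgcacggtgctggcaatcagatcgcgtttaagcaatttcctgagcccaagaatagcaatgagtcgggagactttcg
Cyp26b1: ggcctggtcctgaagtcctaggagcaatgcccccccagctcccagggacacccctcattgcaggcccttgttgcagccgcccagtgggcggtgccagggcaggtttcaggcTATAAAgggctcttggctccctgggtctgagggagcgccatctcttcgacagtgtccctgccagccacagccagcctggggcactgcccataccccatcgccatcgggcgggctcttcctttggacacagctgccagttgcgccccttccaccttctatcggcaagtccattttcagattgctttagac
Rbp4: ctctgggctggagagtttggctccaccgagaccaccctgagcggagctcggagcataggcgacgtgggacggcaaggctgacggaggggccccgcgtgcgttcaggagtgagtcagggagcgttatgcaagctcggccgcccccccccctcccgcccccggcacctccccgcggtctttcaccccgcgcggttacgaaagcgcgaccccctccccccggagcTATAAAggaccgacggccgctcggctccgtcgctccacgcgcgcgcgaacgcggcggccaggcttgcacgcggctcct
Aldh1a2: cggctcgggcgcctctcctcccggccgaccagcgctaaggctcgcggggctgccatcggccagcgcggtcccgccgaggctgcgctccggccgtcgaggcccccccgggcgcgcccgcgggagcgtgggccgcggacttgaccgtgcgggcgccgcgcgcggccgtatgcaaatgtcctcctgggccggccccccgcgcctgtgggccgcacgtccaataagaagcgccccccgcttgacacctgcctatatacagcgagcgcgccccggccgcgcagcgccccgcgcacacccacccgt

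The stretch common to the 3 lists in Dhrs3 ran over positions -213 to -89 from the first listed start site and held no match to any motif searched. That start site, 144892827, differs from the annotated first base of Dhrs3, 144892534, so the stretch lies inside the annotated gene bounds. GC content was 58.7% in the Dhrs3 window, 62.3% in Cyp26b1, 72.0% in this Rbp4 window and 78.0% in Aldh1a2. The tissue-resident peak over this Dhrs3 stretch had the authors' p-value of 1.05e-05, above the 1e-05 in the list's name. With p at most 1e-05 the tissue-resident list would have no peak in the Dhrs3 window. By gene, 1 of the 6 with promoter sequence was overlapped by a peak in each list. Over the 17274 protein-coding genes in the same table the share was 28.7% for tissue-converted, 35.6% for tissue-resident and 42.5% for monocyte-derived peaks.

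Of the 13 promoter windows of these 6 genes, none held AGGTCA, the core site of retinoic acid and related nuclear receptors, on either strand, and 14.6% of all 21045 coding-gene windows did. A direct repeat of AGGTCA with a spacer of 5 bases, a strict form of the retinoic acid response element, overlaps the core by construction. It was in none of the 13 and in 1 of the 21045, too rare for its absence to be informative. Looser forms were not searched. TATAAA was in 2 windows, Cyp26b1 at positions -139 to -134 and Rbp4 at positions -28 to -23 from the start site, against 12.7% of all windows. The Cyp26b1 start site used, 84593810, lies inside the annotated gene, whose bound on that side is 84593908. Positions from the annotated gene start are therefore smaller. The Stra6 start sites, from 58129088 on, also lie inside bounds that begin at 58063793. GAGGAAG, a core of PU.1 sites, was in 2 Stra6 windows (13.3% of all), and TGANTCA, the AP-1 site, which reads the same on both strands, was in 1 Aldh1a1 and 1 Rbp4 window (7.04% of all). These are matches of letters only.

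Dhrs3, which encodes the enzyme that returns retinaldehyde to retinol, had the most regions of the 9 genes. It lies on chromosome 4 from 144892534 to 144928209 (plus strand, gene ID 20148), and the whole of its window lies inside the annotated bounds of Vps13d (144871045 to 145195037, minus strand), which encodes a lipid transfer protein. The window held 6 tissue-converted, 9 tissue-resident and 14 monocyte-derived peaks, which formed 5, 6 and 13 regions. Every region was in the monocyte-derived list, as were 31514 of all 36843 regions. In it alone were 7 of 13, against 39.5% of all regions. The tissue-resident list had 6 of the 13 and the tissue-converted list 5 of those 6. For 13 monocyte-derived regions or more there were 77 genes among all coding genes (0.356%). For 5 or more tissue-converted regions there were 206 (0.952%), and for 6 or more tissue-resident regions 321 (1.48%).

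The Dhrs3 regions fell in 2 groups of calls shared by all lists, at the start of the gene and inside it. At the start, the region chr4:144892189-144892863 crossed the gene's first base, and chr4:144891364-144891713 lay 0.821 kb outside. In the region across the first base the tissue-converted peaks had p-values of 1.69e-06 and 3.69e-07, the tissue-resident peaks 1.49e-08 and 1.05e-05, and both monocyte-derived peaks the floor of 1e-12. All p-values are the authors' own, and they rank a peak only within its own list. In the outer region the tissue-converted peak had 6.74e-06, a value that 81.2% of its list equalled or bettered, the tissue-resident peaks 6.37e-06 and 1.31e-05, and the monocyte-derived peak again 1e-12.

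Inside the gene, 6 regions lay within 3200 bp (chr4:144903714-144906913), with centres 10.9 to 13.8 kb past the first start site. The table used gives gene bounds, so whether they are exonic or intronic is not stated. Tissue-converted macrophages had 3 of these 6, tissue-resident 4 and monocyte-derived all 6. The strongest were chr4:144903914-144904263 and chr4:144906414-144906913. At the nearer of them the p-value was 1e-12 in the tissue-converted, 1.85e-07 in the tissue-resident and 1e-12 in the monocyte-derived list. At the farther it was 1e-12 in the tissue-converted list, 1.49e-08 and 5.63e-06 for the 2 tissue-resident peaks, and 1e-12 in the monocyte-derived list. The tissue-converted list thus had both of its floor values for Dhrs3 inside the gene and none at its start, while the monocyte-derived list had them at both. A region at chr4:144904264-144904488 adjoined the nearer one without overlapping it and was also in all 3 lists.

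Of the other Dhrs3 regions, chr4:144905064-144905288 was called in tissue-resident and monocyte-derived macrophages, with a tissue-resident p-value of 1.18e-05 that 90.4% of its list equalled or bettered. The 7 regions of the monocyte-derived list alone were the pair at chr4:144897939-144898138 and chr4:144898239-144898413, then 144903714 to 144903813, 144905289 to 144905413 and 144908839 to 144909063 inside the gene, and a pair past its far end, 144929664 to 144929738 and 144930439 to 144930563. Their p-values ran between 2.07e-07 and 7.89e-06, none of them at the floor. No Dhrs3 region was in a tissue list and missing from the monocyte-derived list. Over all regions, 90.1% of tissue-converted and 76.7% of tissue-resident regions were also monocyte-derived.

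**Figure D2:**
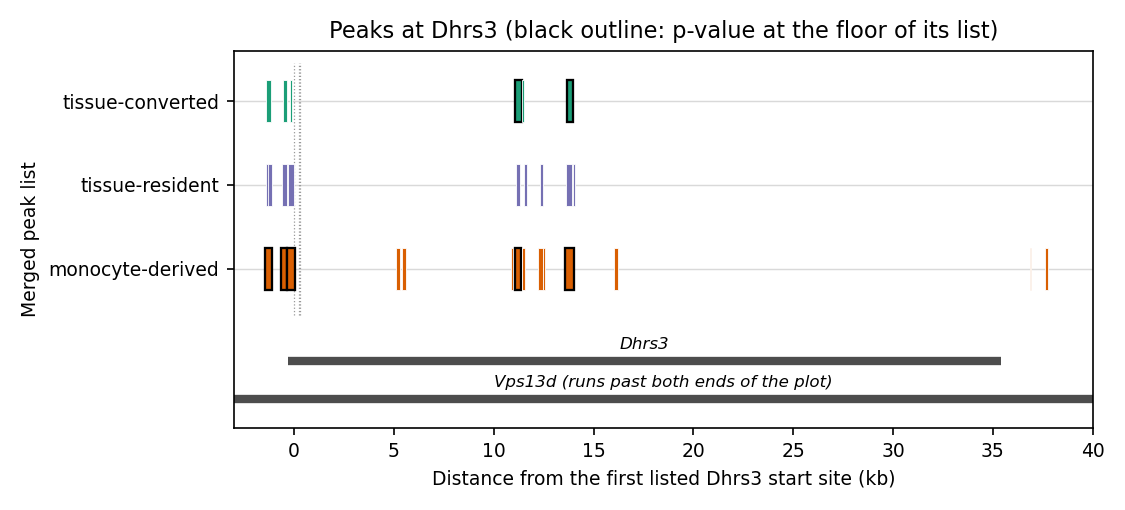
Peaks of each merged list (rows) at Dhrs3, by distance from its first listed start site in kb (x axis); boxes are drawn to scale, a black outline marks a p-value at the floor of 1e-12, dotted lines are listed start sites, and bars below are the bounds of Dhrs3 and Vps13d. All 3 lists have peaks at the start and in the cluster whose centres lie 10.9 to 13.8 kb inside, and the calls with centres at 5.21, 5.50, 16.1, 36.9 and 37.7 kb are monocyte-derived.

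The Dhrs3 counts depended on the joining of peaks, on list length and on the neighbour. With peaks within 200 bp merged, Dhrs3 had 4 tissue-converted, 5 tissue-resident and 9 monocyte-derived regions. With every list reduced to its 15552 peaks of smallest p-value, Dhrs3 had 5 tissue-converted, 5 tissue-resident and 9 monocyte-derived regions, so the monocyte-derived excess over tissue-converted was 4 in place of 8. With regions in the body of another coding gene left out, none remained, since all lie in Vps13d. By nearest coding gene end all 13 stayed with Dhrs3. The 3 genes closest to Dhrs3 in their 3 counts were Sdccag8, with the same 5, 6 and 13 regions, Fli1 with 4, 6 and 13, and Specc1l with 6, 6 and 13, a likeness over 3 values only.

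Rdh10, the retinol dehydrogenase that makes retinaldehyde, had accessible regions in all 3 lists, and all of them at 1 end of the gene. It lies on chromosome 1 from 16105882 to 16132550 (gene ID 98711). The regions numbered 4 in tissue-converted, 5 in tissue-resident and 6 in monocyte-derived macrophages, from 5, 6 and 7 peaks. They spanned 1775 bp, which covers the 1448 bp between Rdh10 and its neighbour Rpl7, a gene of the large ribosomal subunit (16101295 to 16104433). No region was found in the rest of the Rdh10 body or past its other end.

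The region at the edge of Rdh10, chr1:16105639-16105888, reached 7 bases into the gene. Its peak had a p-value of 1e-12 in the tissue-converted, 1.49e-08 in the tissue-resident and 1e-12 in the monocyte-derived list, the smallest of the gene in each list, tied in the last with 1 other. That other was chr1:16104589-16104838, nearer to Rpl7 at 156 bp, with 3.7e-07 in the tissue-converted, 5.06e-06 in the tissue-resident and 1e-12 in the monocyte-derived list. The regions chr1:16104889-16105088 and chr1:16105164-16105438 were in all 3 lists too. In the former the tissue-resident peak had 1.31e-05, above the 1e-05 in the list's name, so that call is lost with p at most 1e-05. In the main setting the lists parted only on the Rpl7 side. There chr1:16104314-16104513, across the end of Rpl7, was tissue-resident and monocyte-derived, and chr1:16104114-16104213, inside Rpl7, was monocyte-derived alone.

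**Figure D3:**
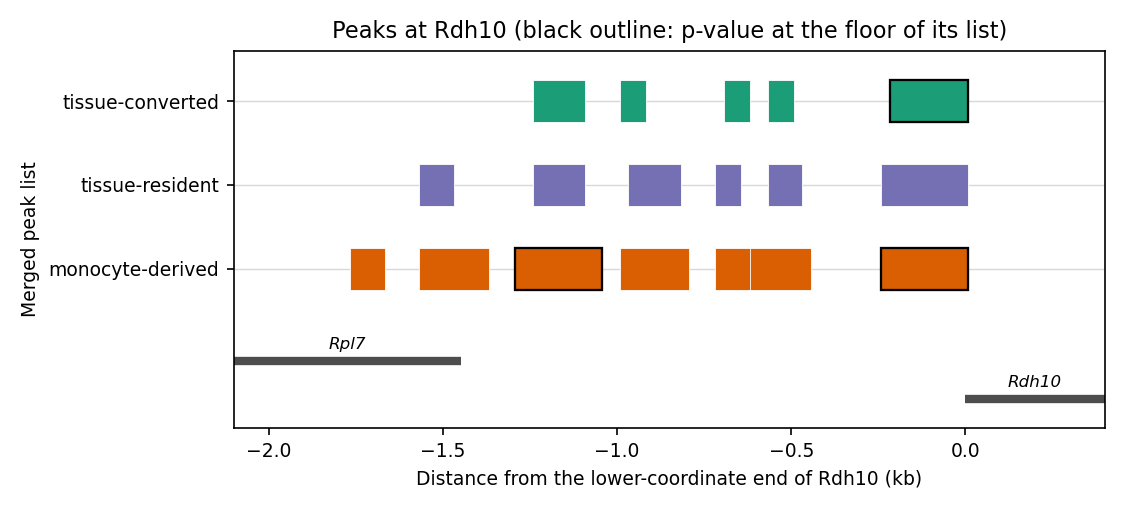
Peaks of each merged list (rows) between Rpl7 and Rdh10, by distance in kb from the lower-coordinate end of Rdh10 (x axis); boxes are to scale, a black outline marks a p-value at the floor of 1e-12, and bars below are gene bounds. All 3 lists share the 4 regions in the gap and at the edge of Rdh10, and they differ at the end of Rpl7. The tissue-resident peak of chr1:16104889-16105088 has a p-value above 1e-05.

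The window of Rpl7 holds the same 6 regions, and 4 of the 6 lie nearer to Rpl7 than to Rdh10. Only the 2 regions nearest to Rdh10 stayed with it by nearest coding gene end, and both were in all 3 lists. With peaks within 200 bp merged, Rdh10 had 2 regions in each list, so the difference between lists was gone. At equal list lengths the Rdh10 counts were 5 tissue-converted, 5 tissue-resident and 4 monocyte-derived regions. That turned order came from the merging rule and not from new tissue calls, as the tissue-converted list is not shortened there. The dropped monocyte-derived peaks of chr1:16105164-16105438 (p-values of 6.73e-06 and 3.38e-06) had joined separate tissue peaks. Without them this region splits into 2 for each tissue list.

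The 3 retinaldehyde dehydrogenase genes, which encode the enzymes of retinoic acid synthesis, had next to no calls. Aldh1a1 (chr19:20492583-20643463, gene ID 11668) and Aldh1a2 (chr9:71215789-71296243, gene ID 19378) had none in windows of 171 kb and 100.5 kb. The peak nearest to the body of Aldh1a1 was 102 kb away in the tissue-converted, 82.8 kb in the tissue-resident and 68.2 kb in the monocyte-derived list. For Aldh1a2 it was 296 kb, 367 kb and 48.5 kb in the same order. The Aldh1a1 window also holds the noncoding genes E030003E18Rik and C730002L08Rik and the pseudogene Gm6684, and that of Aldh1a2 holds Gm32511 and Gm3458, none of them with a call there. Aldh1a3 (chr7:66390892-66427477, gene ID 56847) had 1 tissue-converted, 0 tissue-resident and 2 monocyte-derived regions, all outside its body. The shared region, chr7:66388214-66388388, crossed the end of Lrrk1 at which transcription of that minus-strand kinase gene begins. Its p-value was 4.7e-06 in the tissue-converted and 3.85e-07 in the monocyte-derived list. The other, chr7:66389289-66389438, at 7.44e-09 in the monocyte-derived list, was 948 bp from Lrrk1 and 1.45 kb from Aldh1a3. No Aldh1a3 region had Aldh1a3 as its nearest coding gene. Mir7057, within Lrrk1, and the noncoding Gm33515 also overlap the window and had no region.

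The genes of retinol delivery had no accessible region. Rbp4 (chr19:38116620-38125321, minus strand, gene ID 19662), the plasma retinol carrier, had its nearest peak 61.6 kb away in both tissue lists and 22.9 kb away in the monocyte-derived list. Stra6 (chr9:58063793-58154004, plus strand, gene ID 20897), the receptor for RBP4, had its nearest peak at 99.0 kb in the tissue-converted, 50.3 kb in the tissue-resident and 99.0 kb in the monocyte-derived list. The other genes that reach into these windows, Ffar4, Gm32440 and Pde6c for Rbp4 and Ccdc33 and Islr for Stra6, had no call inside them either. Among all protein-coding genes 36.5% had no region in any list, against 4 of the 9 retinoid genes (44.4%).

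Cyp26b1, which encodes a retinoic acid hydroxylase, had 0 tissue-converted, 2 tissue-resident and 1 monocyte-derived regions. Some other settings kept this order and some did not. It lies on chromosome 6 from 84571414 to 84593908 (minus strand, gene ID 232174) and shares its window with no other gene. Both regions lay inside the gene and away from its start. The region of the tissue-resident list alone, chr6:84579714-84579838, lay 14.0 kb past the start site with a p-value of 5.63e-06, near the middle of its list. The other, chr6:84583439-84583638, lay 10.3 kb past the start. There the tissue-resident peak had 1.18e-05, which is above the threshold of 1e-05 in the list's name, and the 3 overlapping monocyte-derived peaks had 1.69e-06, 8.6e-06 and 8.6e-06. With p at most 1e-05 in every list, and also at equal list lengths, Cyp26b1 had 0 tissue-converted, 1 tissue-resident and 1 monocyte-derived regions, so the tissue-resident excess was gone. Where peaks were joined only if 50% or more of the shorter one was covered, it had 2 tissue-resident and 3 monocyte-derived regions, which turns the direction. The counts stayed at 0, 2 and 1 in gene bodies only, with 50 kb on each side and with peaks within 200 bp merged. They also stayed so by nearest gene end and with bodies of other coding genes left out. The nearest tissue-converted peak was 704 kb from the gene.

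Crabp2 (chr3:87948693-87953372, gene ID 12904), the retinoic acid carrier, had 0 tissue-converted, 1 tissue-resident and 1 monocyte-derived regions. This region, chr3:87960989-87961113, was 7.62 kb outside Crabp2, in the noncoding gene Gm32518. Its p-value was 1.18e-05 in the tissue-resident list, above 1e-05, and 1.69e-06 in the monocyte-derived list. With p at most 1e-05, and also at equal list lengths, the tissue-resident call was lost and the counts were 0, 0 and 1 in the same order of lists. Isg20l2, the coding neighbour, reaches into the window without a region there.

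Between tissue-converted and monocyte-derived macrophages, 5 of the 9 genes had fewer tissue-converted regions (55.6%), namely Dhrs3, Rdh10, Aldh1a3, Cyp26b1 and Crabp2, and none had more. Over all coding genes 45.3% had fewer and 1.81% had more. The sum over the 9 genes was 10 tissue-converted against 23 monocyte-derived regions, a net of -13, of which Dhrs3 gave -8. At equal list lengths the sums were 11 tissue-converted against 17 monocyte-derived regions, a net of -6, and Rdh10 then had more tissue-converted regions (5 against 4). This Rdh10 excess came from the split of 1 region by the merging rule. The median net was -1 for the 9 genes and 0 for all genes. The net for Dhrs3 was matched or passed downward by 148 of the 21631 genes (0.684%).

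Between tissue-resident and monocyte-derived macrophages, 3 of 9 had fewer tissue-resident regions (33.3%), against 35.0% of all genes, and Cyp26b1 had more (1 of 9), against 7.59% of all genes. With p at most 1e-05 or an overlap of at least 50%, none had more, and shares over all genes are not at hand for these settings. The sums were 14 tissue-resident and 23 monocyte-derived regions, a net of -9, of which Dhrs3 gave -7. At equal list lengths they were 11 and 17, a net of -6, and Rdh10 was then the gene with more tissue-resident regions (5 against 4). Here too the Rdh10 excess came from the split of 1 region by the merging rule. The median net was 0 for the 9 genes and for all genes. The net for Dhrs3 was matched or passed downward by 112 genes (0.518%). Without the regions in bodies of other coding genes, which removes all of Dhrs3 and some regions of Rdh10 and Aldh1a3, the counts were 7 and 7. Without Dhrs3 alone they were 8 tissue-resident and 10 monocyte-derived regions.

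Between tissue-converted and tissue-resident macrophages, 4 of 9 had fewer tissue-converted regions (44.4%), against 29.2% of all genes. These were Dhrs3, Rdh10 and Crabp2, each by 1, and Cyp26b1 by 2. With p at most 1e-05 in every list, and also at equal list lengths, only Cyp26b1 had fewer (1 of 9), by 1. Shares over all genes are not at hand for these 2 settings. In the main setting Aldh1a3 had 1 more, as did 4.44% of genes by 1 or more. The sums were 10 tissue-converted and 14 tissue-resident regions, and 10 against 10 with p at most 1e-05 in every list, a filter that removes tissue-resident peaks only among these genes. The 3 comparisons share their lists and are not independent.

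The share of regions that lists had in common was compared with that over all regions. All 10 tissue-converted regions were also monocyte-derived, against 90.1% of all tissue-converted regions, and with 10 of 10 the 95% Wilson interval is 72.3 to 100%. Of the 14 tissue-resident regions 13 were monocyte-derived (92.9%, 68.5 to 98.7%), against 76.7% overall. Of the 23 monocyte-derived regions, 10 were tissue-converted (43.5%, 25.6 to 63.2%), against 37.0%, and 13 were tissue-resident (56.5%, 36.8 to 74.4%), against 49.6%. Intervals cover counting error over regions only, as if regions were independent, and all 4 include the value over all regions. Of the 24 regions 13 are from Dhrs3 and some adjoin each other. The intervals here and for gene ends below may therefore be too narrow. In all 3 lists together were 9 of the 24 regions (37.5%), against 28.1% of all regions, and 9 were monocyte-derived alone (37.5%), against 39.5%.

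Regions lay within 1 kb of a coding gene end in 10 of 24 cases (41.7%, 24.5 to 61.2%), against 37.1% of all regions. At Dhrs3 it was 2 of 13 and at the other genes 8 of 11, where all 8 were at the ends of Rdh10 with Rpl7 or of Lrrk1. Wholly within the bodies of the 9 genes lay 11 regions, 9 of them in Dhrs3 and 2 in Cyp26b1, and 2 more crossed an edge, 1 of Dhrs3 and 1 of Rdh10.

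Within their own lists the peaks of these genes spread over most of the range. At the floor of 1e-12 were 3 of 12 tissue-converted peaks (25.0%; whole list 19.9%), 0 of 18 tissue-resident peaks (whole list 12.9%) and 7 of 27 monocyte-derived peaks (25.9%; whole list 18.5%). All of these floor values belonged to Dhrs3 or Rdh10. Median width was 137.5 bp for tissue-converted, 137.5 bp for tissue-resident and 175 bp for monocyte-derived peaks of the 9 genes, against 125, 125 and 150 bp in the whole lists.

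**Figure D4:**
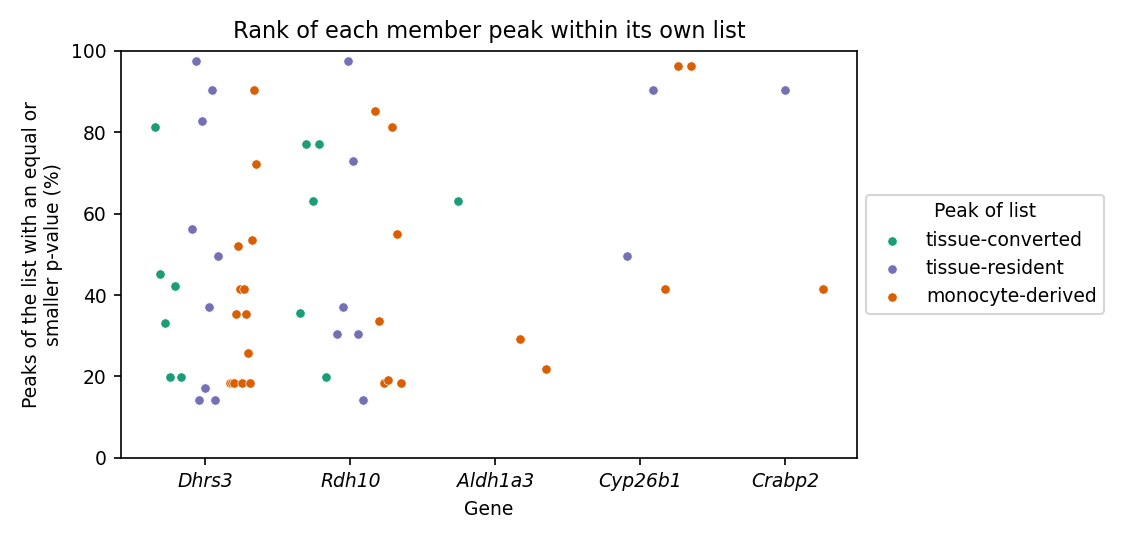
Rank of every peak of the 5 genes with a call, as the percentage of its own list with an equal or smaller p-value (y axis; low means strong), by gene (x axis) and list (colour); each point is 1 peak. The lowest points, at 14.2 to 19.9%, are in Dhrs3 and Rdh10. Tied values at the floor of 1e-12 lie at 18.5% (monocyte-derived) and 19.9% (tissue-converted), so heights do not compare between lists.

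Of 35 other genes of the retinoid pathway, 15 held a region in the tissue-converted (42.9%), 19 in the tissue-resident (54.3%) and 22 in the monocyte-derived list (62.9%), and 13 held none. These shares were near those of all coding genes, 43.2%, 54.0% and 60.2% in the same order. Against monocyte-derived, 18 had fewer tissue-converted regions (51.4%, all genes 45.3%) and 0 more (all genes 1.81%). Also against monocyte-derived, 15 had fewer tissue-resident regions (42.9%, all genes 35.0%) and 0 more (all genes 7.59%). Against tissue-resident, 9 had fewer tissue-converted regions (25.7%, all genes 29.2%) and 3 had more (8.57%, all genes 4.44%). The median nets were -1, 0 and 0 in that order. Dhrs9, a retinol dehydrogenase gene, had 1 tissue-converted, 1 tissue-resident and 5 monocyte-derived regions. Fabp5, whose product can carry retinoic acid, had 1, 2 and 5 in the same order, and Lrp1, the gene of a large endocytic receptor, had 2, 6 and 11.

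The carrier genes Rbp2 and Crabp1, the retinol esterifying enzyme gene Lrat, and the degrading enzyme genes Cyp26a1 and Cyp26c1 had no region in any list. Of the receptors, Rarb had 3 tissue-converted, 5 tissue-resident and 7 monocyte-derived regions, and Rxrb had 0, 1 and 3.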

How the data were processed

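Per the labels, nuclei of FACS-purified cells were tagged with Tn5 and the PCR-amplified DNA was read on a HiSeq. The submitters' processing notes name Bowtie2 2.2.9 and the build mm10 (GRCm38). Peak calling, read shifting for Tn5, duplicate removal and replicate merging are steps not given in the sources used here; any of them can change the number of calls. The authors deposited 1 merged list per group, per the labels, with a p-value for each peak and no read counts or heights, and the deposited p-values reach a floor of 1e-12. Although the lists are named for 1e-05, larger p-values were found for 0 tissue-converted peaks, 5476 (22.5%) in the tissue-resident list and 1267 (3.76%) in the monocyte-derived list.

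Overlapping peaks were merged to regions and counted in gene windows from RefSeq (GRCm38.p6). A net is the number of regions of the first list minus that of the second, and a gene is called at a net of 1 or more. The tables hold a strand only for genes with a promoter entry, 6 of the 9 here. Counting was tested on simulated peaks. No test between groups was possible with 1 list each. The 9 genes, the 35 further genes and the markers were chosen with earlier results of these data known. Named are all 9 genes, every gene overlapping their windows, further pathway genes with a net of 3 or more in either direction, and the 3 genes most like Dhrs3; the 5 further genes given as having no region were picked after their values were seen. Alternatives were stricter p-values, equal list lengths, an overlap of 50%, other windows, merging within 200 bp, no shared windows and, added after seeing the data, nearest gene end. Python 3.11.15, numpy 2.4.6, pandas 2.3.3, statsmodels 0.14.6 and matplotlib 3.10.9 were used.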

Additional observations from a re-analysis of the deposited data

How the results depend on the processing

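No paired analysis was possible because replicates were merged before deposit, and for that reason none could be left out in turn. Over the 9 genes, regions numbered 10 in tissue-converted, 14 in tissue-resident and 23 in monocyte-derived macrophages, with nets of -4 for tissue-converted minus tissue-resident, -13 for tissue-converted minus monocyte-derived and -9 for tissue-resident minus monocyte-derived. Of 144 recomputed summary values 91 stayed close to these, meaning within 1.5 times for a count and within the interval for a share. The cause was not tested where none is named.

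With p at most 1e-10 the regions were 3, 0 and 6, the genes with a region 0 for tissue-resident and 2 for monocyte-derived, the tissue-converted minus monocyte-derived net -3 and the share near a gene end 66.7%; the tissue-converted minus tissue-resident net turned to 3, as the tissue-resident list had no peak of these genes below that value. It was 0 with p at most 1e-5 and 0 at equal list lengths, where tissue-converted minus monocyte-derived was -6. In gene bodies only, regions were 5, 8 and 12, monocyte-derived genes with a region 3, nets against monocyte-derived -7 and -4 and the share 15.4%. With 50 kb on each side, monocyte-derived regions were 38 and these nets -27 and -22. Merging within 200 bp left 15 monocyte-derived regions and nets of -8 and -5. Leaving out bodies of other coding genes removes all of Dhrs3 and some regions of Rdh10 and Aldh1a3. Regions were then 4, 7 and 7, tissue-converted genes with a region 1, these nets -3 and 0 and the share 62.5%. By nearest gene end, a setting added after seeing the data, the share was 22.2%. Overlap of at least 50% moved no sum, net or share by as much, though Cyp26b1 turned to 2 tissue-resident against 3 monocyte-derived regions. Depth is unknown, which limits every missing call.

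Genes with fewer and with more regions of the first list numbered 5 and 0 for tissue-converted against monocyte-derived, 3 and 1 for tissue-resident against monocyte-derived, and 4 and 1 for tissue-converted against tissue-resident. The first pair became 4 and 1 at equal list lengths, 2 and 0 with p at most 1e-10 or in gene bodies only, and 3 and 0 by nearest gene end or without bodies of other coding genes. The second became 4 and 0 with p at most 1e-5 or an overlap of 50%, 2 and 0 with p at most 1e-10, 5 and 1 with 50 kb, and 1 and 1 in gene bodies only, by nearest gene end or without bodies of other coding genes. The third became 1 and 1 with p at most 1e-5 or at equal list lengths, 0 and 2 with p at most 1e-10, 2 and 0 in gene bodies only or without bodies of other coding genes, and 3 and 0 by nearest gene end. In the first pair, the 1 at equal list lengths was Rdh10, through the split of 1 region. Shares over all genes are at hand for the main setting only, so the counts under other settings have no background beside them.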

Other observations

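Vps13d, whose annotated bounds hold all of Dhrs3, had further regions of its own. In its body with 10 kb on each side, 8 regions were tissue-converted, 12 tissue-resident and 31 monocyte-derived. Outside the Dhrs3 window 18 regions remained, of which 3 were tissue-converted, 6 tissue-resident and 18 monocyte-derived. Like the 13 regions around Dhrs3, each of these was in the monocyte-derived list, which held 31514 of all 36843 regions. Lrrk1, the neighbour of Aldh1a3, had 4 tissue-converted, 3 tissue-resident and 9 monocyte-derived regions in its own window.

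Among markers of large peritoneal macrophages, whose factor Gata6 depends on retinoic acid, 1 of 3 genes (Gata6, Icam2 and Timd4) had a region in the tissue-converted, 3 in the tissue-resident and 0 in the monocyte-derived list. For 4 T and NK cell genes the counts were 1, 1 and 3 in the same order. They were 1, 1 and 1 for 5 eosinophil and mast cell genes and 1, 2 and 1 for 4 neutrophil genes. Over all coding genes 43.2%, 54.0% and 60.2% had a region in the same order of lists.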
